A study of Bos taurus with 12 samples.

Results

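The angiotensin, endothelin, nitric oxide and apelin genes ACE, AGTR1, EDN1, EDNRA, NOS3 and APLN were followed in the bovine corpus luteum, the gland of the ovary that secretes progesterone. The 6 genes were chosen with earlier results of these data known. Every non-control probe whose name, accession label or description gave 1 of these 6 symbols was then taken without regard to its values. Each probe was kept apart, with its own row of the array. This gave 6 probes, and 1 further APLN probe, named APELIN in the files, was found through its RefSeq accession. The 7 probes came from 15208 probes with 6656 gene symbols, and all 7 were among the 12605 that entered the tests, since at least 3 of the 4 cows of some group gave a spot well above background.

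Total RNA of corpora lutea from Japanese-Black cows was labelled with Cy3 and hybridised to 1-colour Agilent arrays, 1 array per cow and 12 in all. The P18 group was 4 cows at day 18 of gestation and the P15 group was 4 cows at day 15 of gestation. The NP15 group was 4 cows at day 15 of the estrous cycle. Days were counted with insemination as day 1, and the labels give no treatment, genotype or age. P15 against NP15 sets pregnant against cyclic cows at the same day, P18 against P15 sets a later against an earlier day of gestation, and in P18 against NP15 both pregnancy and day differ.

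Angiotensin-converting enzyme, the product of ACE, cuts angiotensin I to angiotensin II, which constricts vessels through the type 1 receptor AGTR1. Endothelin-1, made from EDN1 mainly in endothelium, constricts vessels through the receptor EDNRA, and it is known as a factor in the regression of the bovine corpus luteum. Endothelial nitric oxide synthase, NOS3, makes the vasodilator nitric oxide, and apelin, made from APLN, is a peptide ligand of the receptor APLNR that acts on vessels.

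The printed probe sequences are those of ACE, APLN and AGTR1, as the deposited scanner files give them. The sequence of EDN1, called on dim spots, is not printed. ACE had the single call between the cows of day 15, and its 60-base probe (36 of 60 bases G or C) is shown first. The APLN gene was measured by 2 probes that gave different results, and capitals mark the longest run of bases they shared, 5 bases long. The second APLN probe and AGTR1 are shown by their first 30 bases, with no capitals in AGTR1.
ACE ABR1814: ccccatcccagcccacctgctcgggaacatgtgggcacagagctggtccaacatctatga
APLN ABR1247: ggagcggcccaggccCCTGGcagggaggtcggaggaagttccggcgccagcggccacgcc
APLN A_73_104195: acactCCTGGgactttttagccagtttgcc
AGTR1 ABR767: aaggtgttattccagtcccaggtagtcatg

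The base composition of the APLN probes differed. ABR1247 was 78.3% G or C, above 99.9% of all probes, whereas A_73_104195 was 41.7%, close to the median of 43.3%. The longest run that 1 of them shared with the reverse complement of the other was 6 bases. No genome position is given for these probes here.

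Values are log2 of the scanner's processed signal minus the 75th percentile of that array, so a difference of 1 is a doubling and 0 lies at the 75th percentile. Levels of different probes were not set against each other, since probes differ in brightness. In bulk tissue, fewer cells of a type and less RNA per cell cannot be told apart. A change was called where the limma test, two-sided and adjusted over all 12605 probes by the Benjamini-Hochberg method, gave an adjusted p under 0.05.

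Per array, the signal that 75% of the probes stayed under was 3000 to 3558 in P18, 2649 to 3773 in P15 and 2868 to 4183 in NP15. Of all probes, 67.5 to 72.6% were well above background on the P18 arrays, 75.3 to 80.5% on the P15 arrays and 79.6 to 85.6% on the NP15 arrays. The net signal of the negative controls was 80.4 to 99.3 on the P18 arrays, 34.1 to 40.0 on the P15 arrays and 35.0 to 38.8 on the NP15 arrays. All 4 P18 arrays were on a slide and scan of their own and the other 8 arrays shared a slide, so slide and group cannot be told apart in both P18 comparisons. On the shared slide NP15 lay in the first and P15 in the second row of arrays, so array position and group cannot be told apart there. All 9 luteal cell markers were kept, with a mean log2 level of 3.06 to 3.15 in P18, 3.27 to 3.67 in P15 and 3.32 to 3.89 in NP15.

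Across the 7 probes, ACE was higher in P15 than in NP15 (1.71-fold) and it was also higher in P18 than in NP15 (1.36-fold). AGTR1 was lower in P18 than in P15 (1.66-fold). APLN was higher in P18 than in NP15 by 1 of its probes (1.55-fold), and EDN1 was called lower in P18 than in NP15, with 1 of 4 P18 arrays well above background and so no fold. EDNRA, NOS3 and the other APLN probe passed the test in none of the 3 comparisons under the settings used for the calls.

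The counts stand beside the counts over all probes. Between P15 and NP15, 1 of 7 vasoactive probes was called, and 0.976% of all kept probes were called (123 of 12605, with 0.397% higher and 0.579% lower). Between P18 and NP15, 3 of 7 were called, against 29.9% of all kept probes (11.2% higher and 18.7% lower). Between P18 and P15, 1 of 7 was called, against 29.0% of all kept probes (13.5% higher and 15.6% lower), so calls in either P18 comparison were common over the whole array.

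The balance of direction over all probes depended on the scaling. In P18 against NP15, 1410 of 3773 calls were higher, and this became 2924 of 4285 with arrays centred on their median, 2035 of 3529 with the normexp background correction, 1898 of 3850 with row medians subtracted and 3178 of 5592 with no filter. In P18 against P15, 1698 of 3659 were higher, and this became 3227 of 4406 with median centring, 2061 of 3292 with normexp and 3483 of 5506 with no filter.

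**Figure D1:**
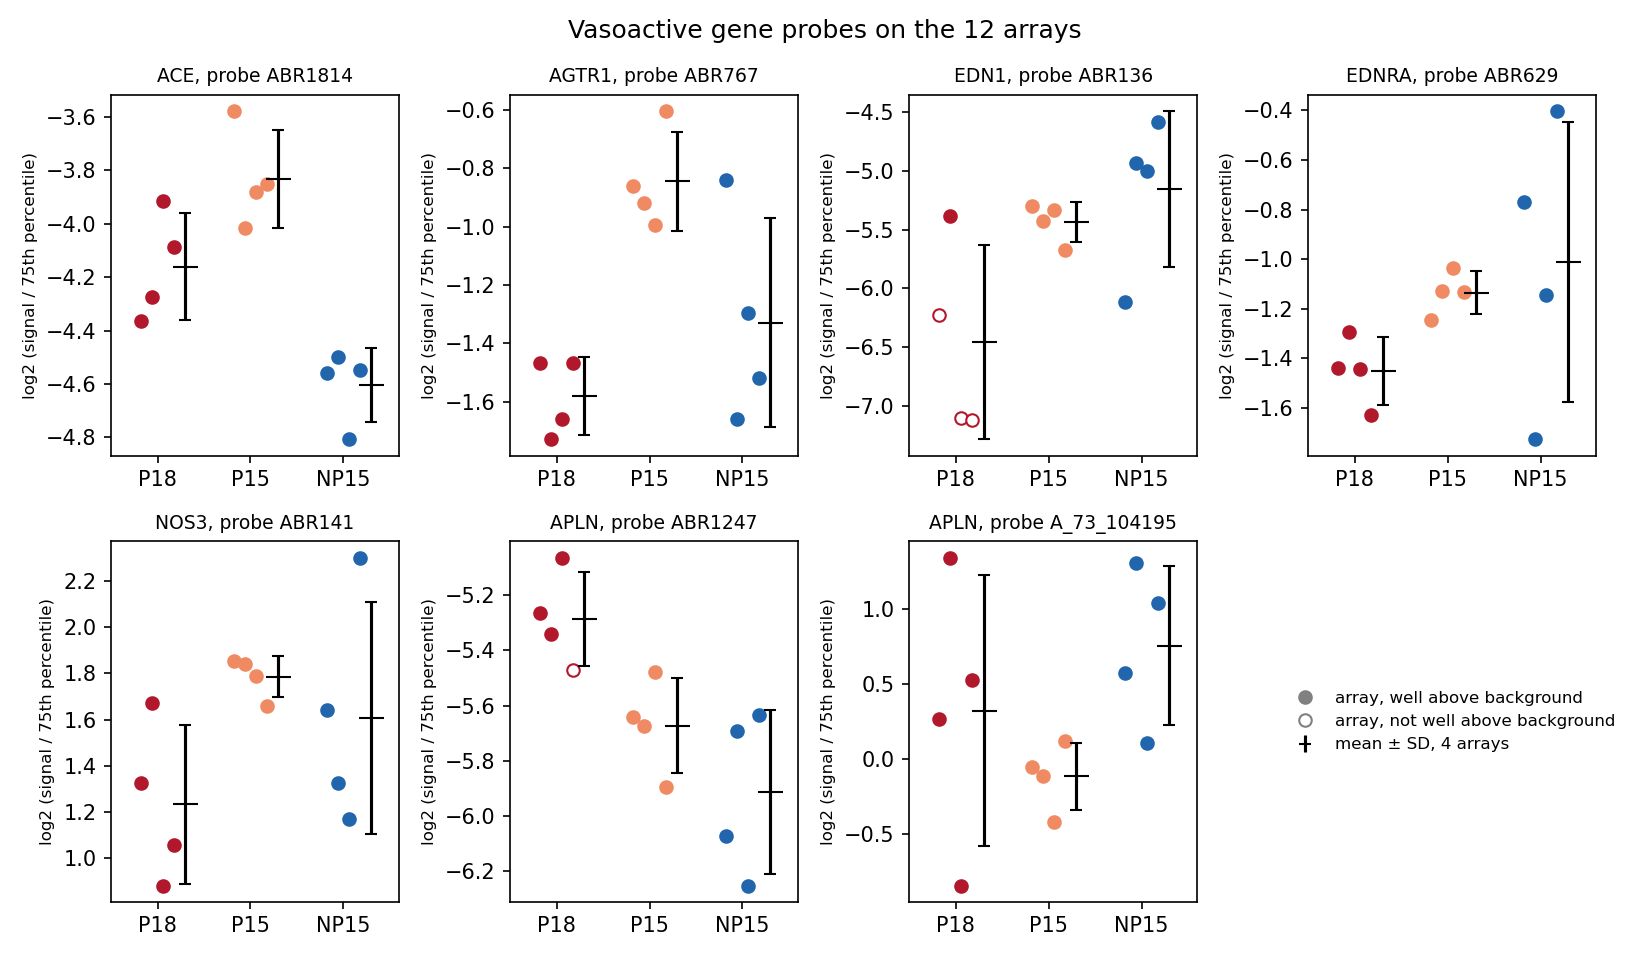
Level of each vasoactive gene probe on the 12 arrays, as log2 of the processed signal over the array's 75th percentile, with P18, P15 and NP15 from left to right. Points are arrays (open where the spot was not well above background), bars are mean ± SD of 4 arrays, and the ACE groups P15 and NP15 do not overlap.

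The converting enzyme is described first. The ACE probe had log2 levels of -4.37, -4.28, -3.91 and -4.09 in the 4 P18 cows. The levels were -3.58, -4.02, -3.88 and -3.85 in the 4 P15 cows. They were -4.56, -4.50, -4.81 and -4.55 in the 4 NP15 cows. Every P18 and every P15 cow lay above every NP15 cow, and P18 overlapped P15. Groups did not overlap for 6.54% of all kept probes in P15 against NP15 and for 30.9% in P18 against NP15.

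The ACE means were -4.16 ± 0.20 in P18, -3.83 ± 0.18 in P15 and -4.60 ± 0.14 in NP15 (SD, n = 4 each). P15 was higher than NP15 by 0.77 (SE 0.13, 95% interval 0.48 to 1.06, limma adjusted p = 0.0206), beyond the spread between cows. P18 was higher than NP15 by 0.44 (SE 0.13, limma adjusted p = 0.0281). P18 minus P15 was -0.33 (95% interval -0.62 to -0.03), which did not pass the test (limma adjusted p = 0.0888). The order of the levels was therefore P15, P18, NP15, and the neighbours P15 and P18 were not told apart.

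The ACE probe gave signals of 172 to 199 in P18, 221 to 250 in P15 and 120 to 185 in NP15, and it was well above background on all 12 arrays. The signal of the negative controls was higher in P18, as given above, and its part in the ACE values was not tested. With normexp, P18 minus NP15 was 0.40 (limma adjusted p = 0.028). P15 minus NP15 was then 0.56 and was not called (limma adjusted p = 0.0806). The ACE probe lay in row 11, close to 1 edge of the array, where the median change of probes in its own and the adjacent rows was 0.06 for P15 minus NP15 and 0.01 for P18 minus NP15. Subtracting such row medians gave 0.71 for P15 minus NP15 and ended that call (limma adjusted p = 0.0813). The P15 against NP15 call was also lost under limma without NP15 replicate 1 (adjusted p = 0.0617), 2 (0.0503) or 3 (0.0684), or without P15 replicate 1 (0.0562), 3 (0.0557) or 4 (0.0550). The P18 against NP15 call was lost under limma without NP15 replicate 1 (adjusted p = 0.0503) or 3 (0.0770), or without P18 replicate 3 (0.0800) or 4 (0.0645).

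AGTR1, the receptor through which angiotensin II constricts vessels, was low at day 18. Its log2 levels were -1.47, -1.73, -1.66 and -1.47 in P18. In P15 they were -0.86, -0.92, -0.995 and -0.61. In NP15 they were -0.84, -1.66, -1.30 and -1.52. All P18 cows lay below all P15 cows, beside 35.2% of all kept probes without overlap in this comparison. The NP15 cows spanned much of both groups, with replicate 1 at the P15 level.

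The AGTR1 means were -1.58 ± 0.13 in P18, -0.85 ± 0.17 in P15 and -1.33 ± 0.36 in NP15 (SD, n = 4 each). P18 was lower than P15, with a log2 change of -0.73 (SE 0.17, 95% interval -1.11 to -0.36, limma adjusted p = 0.00788). This call held in 25 of 25 alternatives, with changes of -0.78 to -0.51 and limma adjusted p of 0.00234 to 0.0315. P15 minus NP15 was 0.48 (SE 0.17) and was not called (limma adjusted p = 0.370). P18 minus NP15 was -0.25 (SE 0.17) and was not called either (limma adjusted p = 0.294). In the order P15, NP15, P18, neither pair of neighbours was told apart, while the ends were.

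EDN1, the precursor of endothelin-1, was a dim probe in P18. Its log2 levels were -6.23, -5.39, -7.10 and -7.12 in P18, where 1 of 4 arrays, replicate 2, was well above background. They were -5.30, -5.43, -5.33 and -5.67 in P15. They were -6.11, -4.93, -5.00 and -4.58 in NP15. The P18 level of replicate 2 lay within the other groups and the other 3 P18 cows lay below them.

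The EDN1 means were -6.46 ± 0.83 in P18, -5.43 ± 0.17 in P15 and -5.16 ± 0.66 in NP15 (SD, n = 4 each). P18 was called lower than NP15, with a fitted log2 change of -1.30 (SE 0.40, limma adjusted p = 0.0309), although the groups overlapped. This value rests on 3 of 4 P18 spots that were not well above background, so its size was not measured. P18 minus P15 was -1.02 (SE 0.40, limma adjusted p = 0.0785) and P15 minus NP15 was -0.28 (SE 0.40, limma adjusted p = 0.883), and neither was called. The order of the means was NP15, P15, P18, with no call between neighbours. The probe passed the filter on dim spots through P15 and NP15 alone.

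Background correction bore on this probe. With the normexp correction the EDN1 change of P18 against NP15 was -0.30 (limma adjusted p = 0.207), with arrays centred on their median it was -1.06 (limma adjusted p = 0.0650), and with row medians subtracted it was -1.04 (limma adjusted p = 0.0621). The call was lost too when P15 was left out of the fit (limma adjusted p = 0.0752). The call was also lost in limma without NP15 replicate 2 (adjusted p = 0.0712), 3 (0.0687) or 4 (0.0693), and without P18 replicate 3 (0.0879) or 4 (0.0815). P18 against P15 was called without P18 replicate 2 (-1.38, limma adjusted p = 0.0149) or NP15 replicate 1 (-1.02, limma adjusted p = 0.0485), with row medians subtracted (-1.27, limma adjusted p = 0.0283) or with weights per array (-1.12, limma adjusted p = 0.0369). The probe lay in row 190, near the edge, where the median change of adjacent probes was -0.26 for P18 minus NP15, 0.25 for P18 minus P15 and -0.50 for P15 minus NP15.

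**Figure D2:**
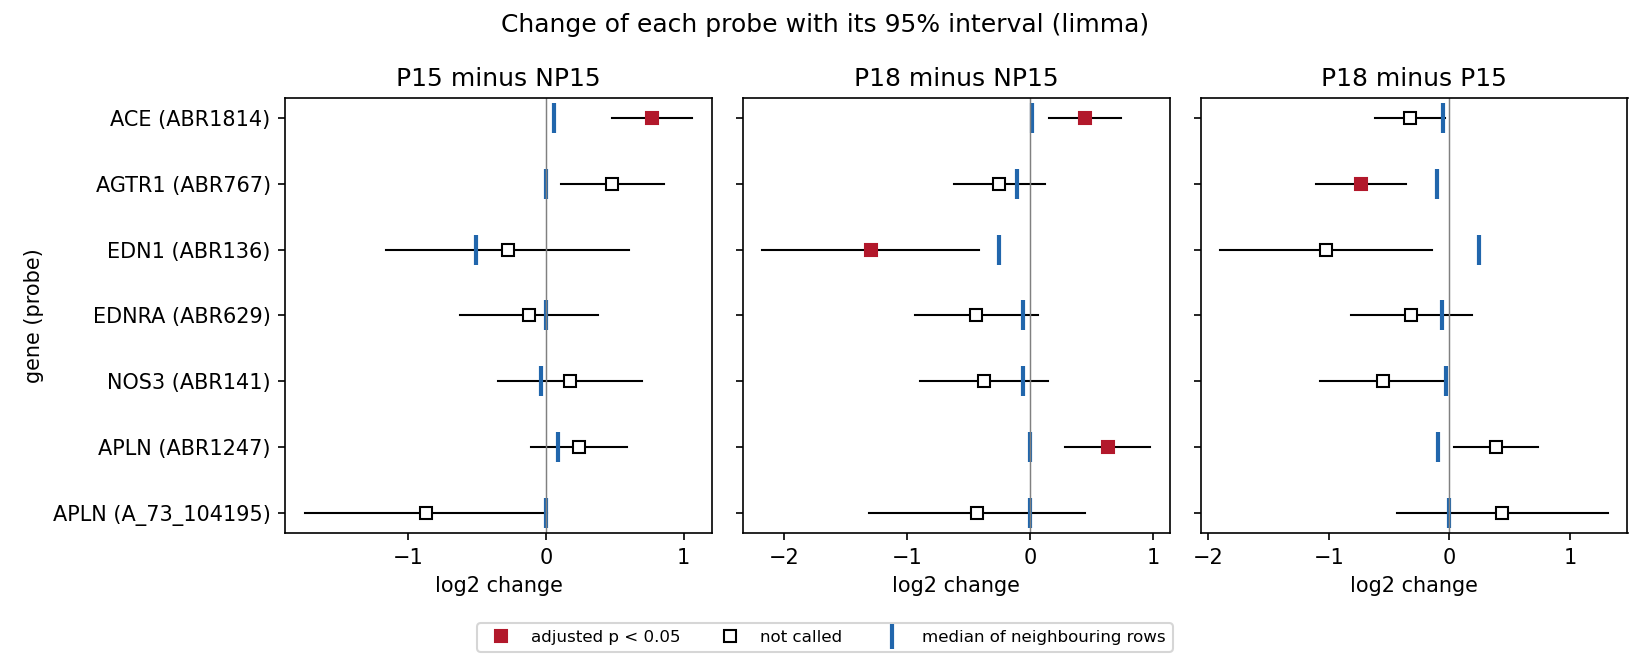
Log2 change of each vasoactive gene probe in the 3 comparisons with its 95% interval, and the median change of all probes in the same and adjacent rows as a blue bar. Filled squares passed the limma test. ACE passed in P15 minus NP15 and in P18 minus NP15, and AGTR1 alone in P18 minus P15.

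EDNRA, the receptor that carries the constricting effect of endothelin-1, showed no called change. Its log2 levels were -1.44, -1.29, -1.44 and -1.63 in P18. They were -1.25, -1.13, -1.03 and -1.13 in P15. They were -0.77, -1.73, -1.15 and -0.40 in NP15. The P18 cows all lay below the P15 cows, and NP15 spread over the range of both.

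The EDNRA mean was -1.45 ± 0.14 in P18 and -1.01 ± 0.56 in NP15 (SD, n = 4 each). P18 minus P15 was -0.32 (95% interval -0.82 to 0.18, limma adjusted p = 0.330). That no P18 cow overlapped P15 is set beside 35.2% of all kept probes whose groups did not overlap in this comparison. P18 minus NP15 was -0.44 (SE 0.23, limma adjusted p = 0.172), and it was -0.68 (limma adjusted p = 0.0135) without NP15 replicate 2. P15 minus NP15 was -0.12 (SE 0.23, limma adjusted p = 0.900). Fitted without NP15, the P18 against P15 difference passed (limma adjusted p = 0.0442).

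NOS3, the endothelial enzyme that makes nitric oxide, had log2 levels of 1.33, 1.67, 0.88 and 1.06 in P18. They were 1.85, 1.84, 1.79 and 1.66 in P15. They were 1.64, 1.32, 1.17 and 2.30 in NP15. Of the 4 P18 cows, 3 lay below all P15 cows, and NP15 spanned from the P18 range to above P15.

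The NOS3 mean was 1.23 ± 0.34 in P18 and 1.61 ± 0.50 in NP15 (SD, n = 4 each), and the P15 cows had an SD of 0.089. P18 minus P15 was -0.55 (95% interval -1.07 to -0.03, limma adjusted p = 0.106). It was called without NP15 replicate 4 (limma adjusted p = 0.0281), with weights per array (limma adjusted p = 0.0215) or without the NP15 group (limma adjusted p = 0.0398). P18 minus NP15 was -0.38 (SE 0.24, limma adjusted p = 0.262) and P15 minus NP15 was 0.18 (SE 0.24, limma adjusted p = 0.873). No neighbours in the order P15, NP15, P18 were told apart.

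Markers of endothelial cells are set beside EDN1 and NOS3, the latter called in no comparison under the settings used for the calls. Of 14 endothelial marker probes, 6 were lower and 0 higher in P18 than in NP15, against 18.7% of all kept probes lower. PECAM1 was at -1.06, CDH5 at -1.13 and VWF at -0.87 on the log2 scale, while the 2 probes of KDR, a receptor of vascular endothelial growth factor, were at 0.19 and 0.06 and not called. The 2 probes of FLT1, another such receptor, disagreed, at -1.23 (called) and 0.13 (not called). The called FLT1 probe was well above background on 2 of 4 P18 arrays and passed the filter through P15 and NP15 alone. Against P15, 5 of 14 were lower and 0 higher in P18 (15.6% of all kept probes were lower), and between P15 and NP15 0 of 14 were called. Their mean log2 level was -1.91 to -1.61 in P18, -1.29 to -1.13 in P15 and -1.42 to -1.002 in NP15, and each marker was well above background on some arrays of every group. Their part in the NOS3 and EDN1 values was not tested.

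Markers of pericytes and smooth muscle stand beside AGTR1 and EDNRA, which such cells carry. Of all kept probes, 18.7% were called lower in P18 than in NP15 and 15.6% lower than in P15. ACTA2, smooth muscle actin, was the 1 of 8 probes called in P18 against NP15 (-1.88) and in P18 against P15 (-1.69), and 0 of 8 were called between P15 and NP15. The mean log2 level of the 8 was -0.28 to 0.14 in P18, 0.16 to 0.52 in P15 and 0.19 to 0.45 in NP15, and every one was well above background in each group. Their part in the receptor values was not tested.

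The other cell type markers were counted in the same way. Of all kept probes, 11.2% were called higher and 18.7% lower in P18 than in NP15. The shares were 13.5% higher and 15.6% lower in P18 than in P15, and 0.397% higher and 0.579% lower in P15 than in NP15. Of 9 luteal cell markers, 4 were lower and 0 higher in P18 than in NP15, 2 lower and 1 higher in P18 than in P15, and 1 lower and 0 higher in P15 than in NP15. Of 6 fibroblast markers, 3 were lower in P18 than in NP15, 3 lower in P18 than in P15, and 0 called in P15 against NP15. Of 10 leukocyte markers, 1 was lower in P18 than in NP15, and 2 were higher and 1 lower in P18 than in P15. The lower call in both comparisons was PTPRC, and the higher calls were CD68 and MS4A1. For CD4, MS4A1 and PTPRC, the last a marker of all leukocytes, 0 of 4 P18 arrays were well above background. MS4A1 was so on 1 of 4 P15 arrays, and its rise was not measured. PTPRC passed the filter through P15 and NP15 alone, so its lower calls set dim spots against groups that let it in. Of 3 red blood cell and platelet markers, ALAS2, an enzyme of heme synthesis in red cell precursors, was higher in P18 than in NP15 (0.49) and than in P15 (0.54), and 0 were lower.

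Apelin was measured by 2 probes. With ABR1247, named APELIN in the files, the log2 levels were -5.27, -5.34, -5.06 and -5.47 in P18, -5.64, -5.67, -5.48 and -5.89 in P15, and -6.07, -5.69, -6.25 and -5.64 in NP15. No P18 cow overlapped either other group, whereas P15 and NP15 overlapped. Of all kept probes, 30.9% had no overlap between P18 and NP15 and 35.2% had none between P18 and P15. The signals were low, at 72 to 92 in P18, 53 to 83 in P15 and 44 to 81 in NP15, and in P18 3 of 4 arrays were well above background.

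By that probe, APLN had a mean of -5.29 ± 0.17 in P18, -5.67 ± 0.17 in P15 and -5.91 ± 0.30 in NP15 (SD, n = 4 each). P18 was higher than NP15 by 0.63 (SE 0.16, limma adjusted p = 0.0119), and this held in 22 of 22 alternatives (limma adjusted p of 0.00271 to 0.0373). The signal of the negative controls was also higher in P18, as given above, and its part in this dim probe was not tested. P18 minus P15 was 0.39 (SE 0.16, limma adjusted p = 0.0902), which passed with arrays centred on their median (0.61, limma adjusted p = 0.0158), with normexp (limma adjusted p = 0.0372), with row medians subtracted (limma adjusted p = 0.0199) or without NP15 in the fit (limma adjusted p = 0.0493). P15 minus NP15 was 0.24 (SE 0.16, limma adjusted p = 0.763).

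With A_73_104195 the APLN log2 levels were 0.27, 1.34, -0.84 and 0.52 in P18, -0.06, -0.12, -0.42 and 0.12 in P15, and 0.57, 1.30, 0.10 and 1.04 in NP15. Both the lowest and the highest of the 12 values were P18 cows, and 3 of the 4 P15 cows lay below all NP15 cows. The means were 0.32 ± 0.90 in P18, -0.12 ± 0.22 in P15 and 0.75 ± 0.53 in NP15 (SD, n = 4 each). P18 minus NP15 was -0.43 (95% interval -1.31 to 0.45, limma adjusted p = 0.452), with the opposite sign to ABR1247. P15 minus NP15 was -0.87 (SE 0.40, limma adjusted p = 0.576) and P18 minus P15 was 0.44 (SE 0.40, limma adjusted p = 0.448).

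Whether the 2 APLN probes changed alike was tested on their difference. The difference ABR1247 minus A_73_104195, taken on each array, averaged 1.11 more in P15 than in NP15 (SD 0.39 in P15 and 0.26 in NP15), and every P15 cow lay above every NP15 cow. An exact two-sided permutation test over 4 against 4 cows gave p = 0.0286, the smallest it can give. After Benjamini-Hochberg adjustment over 3 comparisons this was 0.0857, which does not pass. A lower adjusted value would have needed smaller p in the other comparisons too. P18 minus NP15 was 1.06 (exact permutation p = 0.114, adjusted 0.171) and P18 minus P15 was -0.05 (exact permutation p = 1). Which of the probes follows the APLN transcript was not tested.

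**Figure D3:**
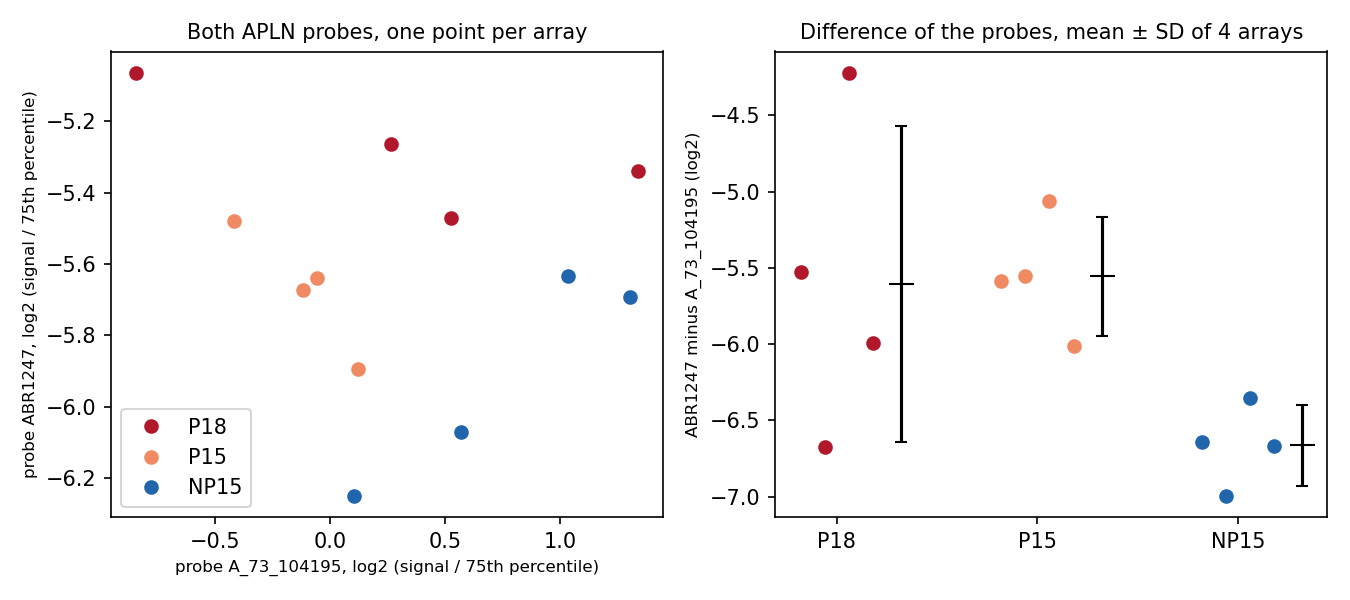
Left, the log2 level of APLN probe ABR1247 against that of A_73_104195, a point per array in P18, P15 and NP15. Right, the per-array difference of the probes with mean ± SD of 4 arrays. Only the change of this difference between groups is read, since probes differ in brightness, and it averaged 1.11 more in P15 than in NP15, which did not pass the test after adjustment.

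The place of probes on the array was set beside their changes. In P15 minus NP15 the median change over all probes was above 0 in the first rows and below 0 in the last rows, as the plot of change by row shows. ACE in row 11, APLN ABR1247 in row 13 and EDN1 in row 190 lay within 24 rows of an edge, while EDNRA, AGTR1, NOS3 and the other APLN probe lay further in, at rows 30, 51, 80 and 91. ACE lay 0.71 above the median of its rows, and EDN1 0.23 above its own. Of the 3 probes called in P18 against NP15, all lay within 24 rows of an edge, and AGTR1 was the 1 called probe that did not. In P18 minus NP15 the median change of the same and adjacent rows was 0.01 for ACE, -0.002 for APLN ABR1247 and -0.26 for EDN1. With row medians subtracted, the call of ACE held there (limma adjusted p = 0.0362), as did that of APLN ABR1247, and that of EDN1 was lost.

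**Figure D4:**
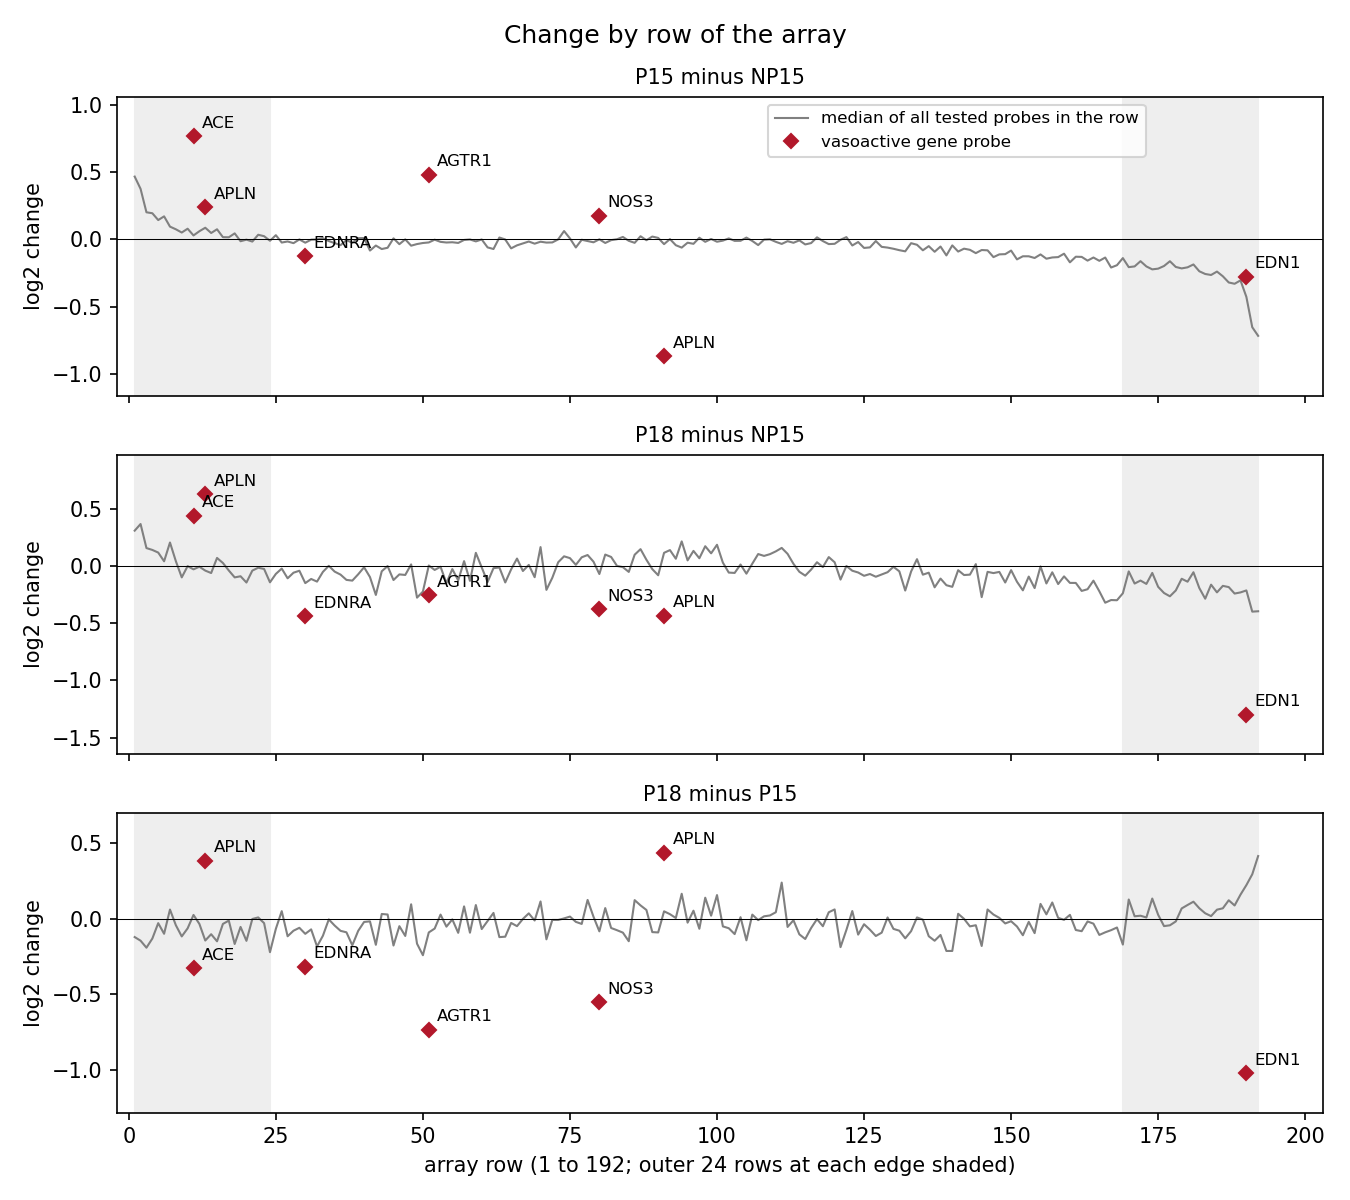
Log2 change of the vasoactive gene probes (diamonds) by array row, with the median change of all tested probes in each row (line) and the 24 rows at each edge shaded. EDN1 in row 190 and the line both lie below 0 in P15 minus NP15.

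The other genes of these pathways were counted from lists. In the renin-angiotensin list, 5 of 12 genes were tested, and AGT, angiotensinogen, from which the angiotensins are cut, was the 1 that changed. Its log2 level was -5.21 to -3.84 in P18, -6.74 to -5.18 in P15 and -6.62 to -5.40 in NP15. AGT was higher in P18 than in NP15 by 1.42 (SE 0.38, 2.68-fold, limma adjusted p = 0.0163) with no overlap, and higher in P18 than in P15 by 1.30 (SE 0.38, limma adjusted p = 0.0251) with overlap. Of all kept probes, 30.9% had no overlap between P18 and NP15. Called higher in P18 were 11.2% of all kept probes against NP15 and 13.5% against P15. The call against NP15 held in 25 of 25 alternatives. The call against P15 was lost under limma without P15 replicate 3 (adjusted p = 0.0669) or 4 (0.0584), or without P18 replicate 1 (0.0514) or 3 (0.0725). The others named were not called in any comparison. AGTRAP, which binds AGTR1, was at -0.24 in P18 minus NP15. ENPEP, which cuts angiotensin II to angiotensin III, was well above background on 1 of 4 P18 arrays, so its change was not measured.

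In the endothelin list, 3 of 5 genes were tested. The second endothelin receptor EDNRB was called lower in P18 than in NP15 (limma adjusted p = 0.0363), and no P18 array was well above background for it, so the size of the change was not measured. That call was lost in 8 of 24 alternatives. With 1 of 4 P15 arrays well above background, the probe passed the filter through NP15 alone. The call thus sets dim spots against the group that let the probe in. The converting enzymes ECE1 and ECE2, which release endothelin-1 from its precursor, were at 0.31 and -0.10 in P18 minus NP15, and neither was called. The median change of the list was -0.10 in P18 minus NP15 and 0.26 in P18 minus P15, against -0.06 and -0.03 over all kept probes.

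In the list of nitric oxide and cyclic GMP genes, 15 of 18 genes with 18 probes were tested. None rose in P18, 4 of 18 probes fell against NP15 and 3 of 18 against P15, counts near the 18.7% and 15.6% of all kept probes that fell. The median change was -0.09 against NP15 and -0.12 against P15. GUCY1A1, a subunit of the guanylate cyclase that nitric oxide activates, averaged -5.21 ± 0.25 in P18, -4.05 ± 0.097 in P15 and -4.25 ± 0.19 in NP15 (SD, n = 4 each). Its change was -0.96 against NP15 (limma adjusted p = 0.000594) and -1.16 against P15 (limma adjusted p = 0.000201). AKT1, a kinase that activates NOS3, changed by -0.74 against NP15 (limma adjusted p = 0.00402) and by -0.59 against P15 (limma adjusted p = 0.0141), the last lost with median centring (limma adjusted p = 0.0833).

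ARG2, an arginase that uses the substrate of nitric oxide synthases, was called lower in P18 than in NP15 (limma adjusted p = 0.0108) and than in P15 (limma adjusted p = 0.00909). No P18 array was well above background for it, so the size was not measured, and the normexp correction ended both calls (limma adjusted p = 0.916 against NP15 and 0.793 against P15). The ARG2 probe passed the filter through P15 and NP15 alone, so both calls set dim spots against groups that let it in. DDAH2, which breaks down an inhibitor of nitric oxide synthases, was at -0.28 in P18 minus NP15 (limma adjusted p = 0.04996), a call that 19 of 25 alternatives ended.

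Of the other vasoactive peptides and receptors, 12 of 28 genes were tested. In P18 against NP15, 1 rose and 2 fell, and in P18 against P15 3 fell, with medians of -0.50 in both. Of all kept probes, 11.2% rose and 18.7% fell against NP15, and 15.6% fell against P15. NPR2, the receptor of C-type natriuretic peptide, was lower by log2 changes of -0.59 against NP15 (limma adjusted p = 0.00266) and -0.72 against P15 (limma adjusted p = 0.000885). AVPR2, a vasopressin receptor, was higher in P18 than in NP15 by 0.53 (limma adjusted p = 0.00501). BDKRB2, the bradykinin receptor, was at least 1.15-fold lower in P18 than in NP15 (limma adjusted p = 0.00249), since no P18 array was well above background, and normexp ended that call (-0.07, limma adjusted p = 0.683). NPR3, which clears natriuretic peptides, was called lower in P18 than in P15 (limma adjusted p = 0.0143), with no P18 array well above background and a place in row 1, and normexp ended that call (limma adjusted p = 0.695). BDKRB2 and NPR3 passed the filter through P15 and NP15 alone, so these calls set dim spots against groups that let the probes in.

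Contractile signalling genes downstream of AGTR1 and EDNRA were tested for 14 of 20 genes with 15 probes. In P18 against NP15, 0 rose and 4 fell, and in P18 against P15 RHOA rose and 3 fell, beside 18.7% of all kept probes lower than in NP15 and 15.6% lower than in P15. The median change was -0.26 against NP15 and -0.23 against P15. RHOA is named after its value was seen. GNA11, a G protein subunit that couples these receptors to phospholipase C, averaged 0.019 ± 0.21 in P18, 1.08 ± 0.080 in P15 and 0.92 ± 0.13 in NP15 (SD, n = 4 each). Its change was -0.90 against NP15 (limma adjusted p = 0.000325) and -1.07 against P15 (limma adjusted p = 0.000148).

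ITPR3, a calcium channel opened by inositol trisphosphate, changed by -0.82 against NP15 (limma adjusted p = 0.00254) and by -1.34 against P15 (limma adjusted p = 0.000173). ROCK2, a kinase that promotes contraction, changed by -1.51 against NP15 (limma adjusted p = 0.00258) and by -1.13 against P15 (limma adjusted p = 0.0125), with 2 of 4 P18 arrays well above background, and normexp ended the call against P15 (limma adjusted p = 0.0906). The ROCK2 probe passed the filter through P15 and NP15 alone. GRK2, which desensitises receptors, was lower in P18 than in NP15 (-0.69, limma adjusted p = 0.0215), while P18 minus P15 was -0.26 (limma adjusted p = 0.367). Its call was lost with quantile normalization (limma adjusted p = 0.0741), median centring (0.0809) or normexp (-0.26, 0.246), and without P18 replicate 2 (0.0537) or 3 (0.0602). No probe of any of these lists was called between P15 and NP15. The apelin receptor APLNR and the ligand gene APELA were not analysed here.

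**Figure D5:**
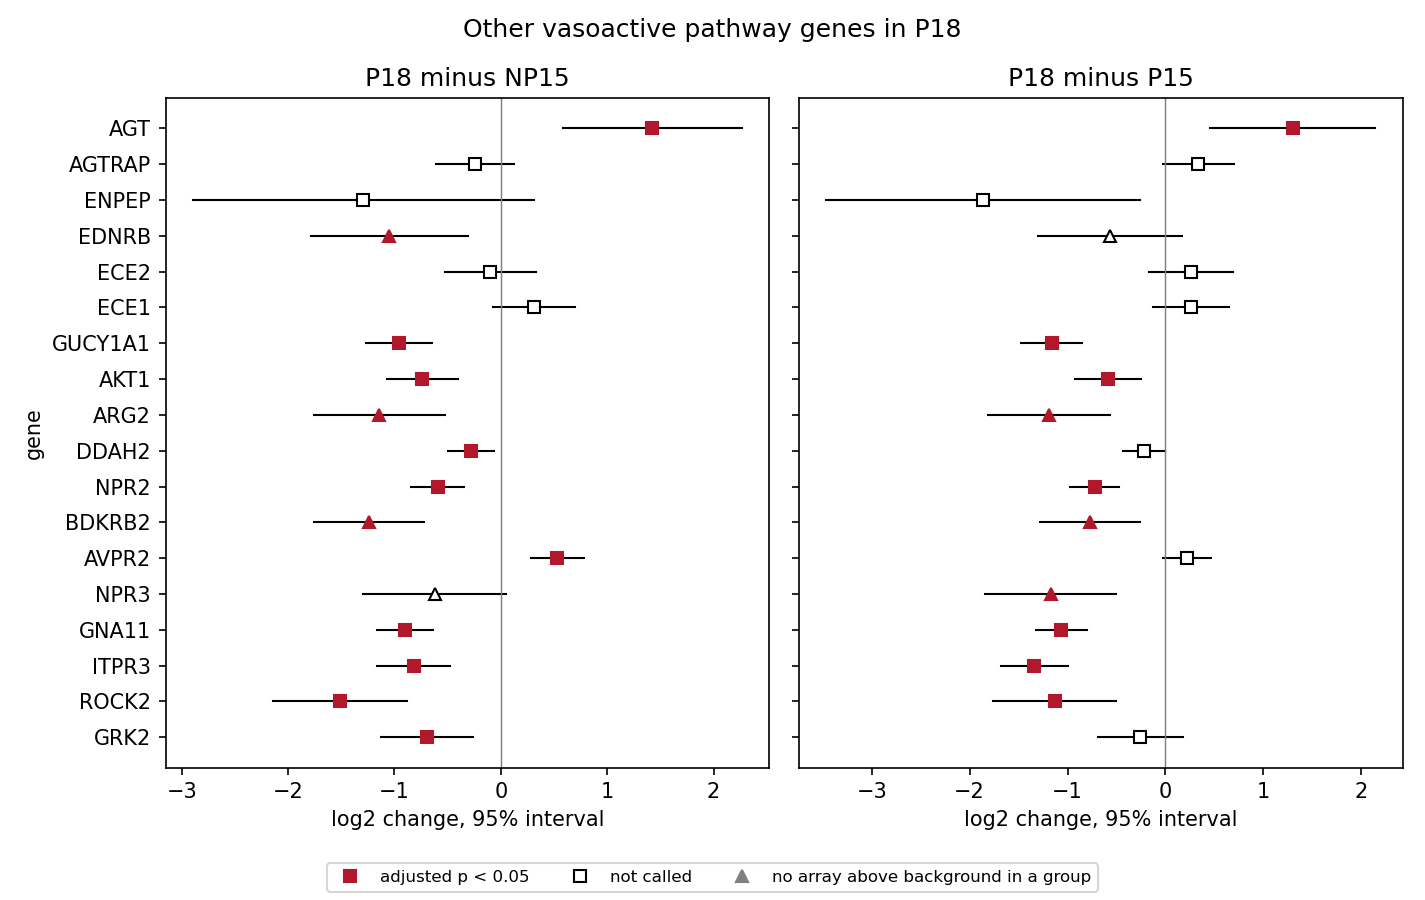
Log2 change with 95% interval of the named genes of the pathway lists in P18 minus NP15 (left) and P18 minus P15 (right). Filled symbols passed the limma test, and triangles mark a group with no array well above background, where the change is no fold. AGT lies right of 0 and GNA11 left of 0 in both panels.

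The genes most alike in their pattern over the 12 arrays were sought among 6108 named and kept probes by Pearson's r, as a description, since arrays of a group share their slide. NOS3 was most like TCF4 (r = 0.951), PIK3C2B (0.933) and HEYL (0.907). EDN1 was most like SLC46A1 (0.932), TEKT2 (0.925) and COMMD5 (0.913). AGTR1 was most like GHITM (0.864, row 1), ARMCX2 (0.861) and DDX3X (0.851), and EDNRA was like CHUK (0.880) and BCCIP (0.876).

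For ACE the most alike were PFN3 (0.877), CYB561 (0.874) and TGFBR2 (0.871), and PFN3 and TGFBR2 lay in row 1. The APLN probe ABR1247 was most like TMEM171 and NLRP5 (0.903 each) and NDUFA8 (0.899), in rows 21, 8 and 15. The other APLN probe was most like FASTK (0.837), GATB (0.833) and TMA16 (0.831), so the 2 APLN probes had no gene in common among these.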

How the data were processed

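The deposited scanner files of 12 arrays hold spot intensities that, per the file headers, Agilent Feature Extraction 9.5.1.1 (9.5 per the submitters' processing notes) corrected for background and a spatial trend. The deposited value table holds log2 values, each column being log2 of that signal minus an array constant, within 0.0142 of the 75th percentile (largest stray 1.79e-06, column medians of -3.32 to -2.99). Its scale and direction are thus known.

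This corrected signal was divided by the 75th percentile of its array and put on the log2 scale. Control spots were dropped, and non-uniform or outlier spots counted as missing, at most 9 per array and none in the vasoactive probes. Each probe was tested apart by lmFit and eBayes of limma 3.58.1 (R 4.3.3) over all 12 arrays, and the procedure was tested on simulated data. The number of arrays limits the precision. In the fit over all 12 arrays, each limma p-value rests on the spread between the 4 cows of each group, pooled over the groups. By eBayes this spread is drawn toward that of other probes. The cows of a group outside a comparison thus bear on its p-value as well. A bound ("at least") sets the brighter mean against the lowest signal well above background. Gene names came from the files and, for accessions and gene numbers, a RefSeq table of ARS-UCD2.0, used for names only: 8179 probes had no symbol there.

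Members and lists were chosen with earlier results of these data known. From each list up to 4 genes with the smallest p in any comparison were named, and for each probe the 3 most alike genes, except items that are not reported here. Alternatives were the normalization, background correction, filter, array rows, samples in the fit, array weights, the replicate block and leaving out each array. The replicate numbers were not used as pairs, since same-numbered cows did not all deviate together with a correlation over 0.1 in any comparison.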

Additional observations from a re-analysis of the deposited data

How the results depend on the processing

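Leaving out 1 array at a time gave 0 to 1 of 7 vasoactive probes called in P15 against NP15, 1 to 3 in P18 against NP15 and 1 to 2 in P18 against P15. Over all probes it gave 67 to 121, 3030 to 4154 and 2996 to 4533 calls. In P15 against NP15, 0 vasoactive probes were called with normexp, row adjustment, only the 2 groups or the replicate block. In inner rows 0 of 4 tested were called, but ACE lay outside those rows and was not tested there. All probes called, 123 (50 higher), became 76 (44 higher) with normexp, 40 (28 higher) with row adjustment, 65 with the 2 groups, 214 with array weights, 75 with the replicate block and 0 of 9469 in inner rows. In P18 against NP15, 1 of 5 probes above background on all arrays and 0 of 4 in inner rows were called. EDN1 and APLN ABR1247 were not among those 5. ACE, EDN1 and APLN ABR1247 lay outside the inner rows, so their calls were not tested there. In P18 against P15, 2 were called with median centring or normexp, 3 with row adjustment or array weights and 4 with the 2 groups, and all probes called were 5506 with no filter, against 3659.

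Signs reversed for EDN1 in P15 against NP15 with row adjustment (0.23), EDNRA there without NP15 replicate 4 (0.079, the other end of its leave-one-out range being -0.36), and with normexp for ARG2 in P18 against NP15 (0.034) and BDKRB2 in P18 against P15 (0.077). Of 507 values of the vasoactive probes, 468 kept direction and call, 24 lost the call, 13 gained it and 2 reversed. Median centring moved the median of all probes to 0.18 in P18 against NP15 and 0.20 in P18 against P15, where AGTR1 remained called. The causes were not tested.

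Same-numbered arrays of P15 and NP15 deviated together with correlations of 0.0967 to 0.293, with 3 of 4 over 0.1, and 6 of 8 arrays correlated best with their own number. On the shared slide the replicate number was also the column of the array. Pairs of cows and array column therefore cannot be told apart. Pairing was to be taken as given only with every pair over 0.1, so the block stayed an alternative. With the replicate block, ACE had limma adjusted p = 0.0918 in P15 against NP15 and 0.0585 in P18 against NP15. Signal over background limits EDN1, APLN ABR1247 and EDNRB in P18.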
